A study of Mus musculus with 24 samples.

Results

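Collagen chain genes were described in the mouse myoblast line C2C12 and the motor-neuron-like line NSC34. The members are the 44 protein-coding genes of the GENCODE M21 annotation of GRCm38 whose symbol has the form Col, a type number, the letter a and a chain number, out of 22028 protein-coding genes. Reads fell on 33 of them in C2C12 and on 5 in NSC34, and 10 had 0 reads in both lines. In C2C12, 9 chains had enough reads to be tested. Another 7 had 10 or more reads without passing the filter on low counts, 17 had 1 to 9 reads and 11 had 0.

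C2C12 is an established mouse myoblast line whose cells can fuse into myotubes, and NSC34 is an established hybrid line with motor neuron features. Both are labelled wild type. Each line was grown without co-culture (control, n = 6 libraries) or in co-culture with the other line for 3 days (n = 6), 24 libraries in all. Total RNA was sequenced on the MinION, a Nanopore device. No label tells how C2C12 and NSC34 were separated for extraction or whether libraries of a group came from separate cultures, so p-values measure the spread between these libraries, which may be technical.

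Depth was 121154 to 658075 reads per C2C12 library. NSC34 had 15858 control and 55007 co-culture reads in all, at 88 to 30314 per library. Of the 10 muscle markers listed, 10 had C2C12 reads, and their summed share was 0.842 to 1.10% of reads in controls and 1.12 to 1.26% in co-culture. Of 12 neuronal markers, 9 had reads in NSC34 (13 control and 39 co-culture reads). Among these markers Chat, the acetylcholine-synthesising enzyme, had 1 read, Isl1 3 and Mnx1 0. Muscle markers had reads in NSC34 too, on 3 of the 10 genes (5 control and 19 co-culture reads), of which Chrna1 held 20.

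Collagens are triple-helical proteins of the extracellular matrix, built from 3 chains with a long glycine-rich repeat. Fibrillar types (I, III, V) form the banded fibrils of connective tissue, type IV forms the network of basement membranes, type VI forms beaded filaments around muscle fibres, and fibril-associated, transmembrane and multiplexin types decorate fibrils or cell surfaces. In muscle the chains come largely from connective-tissue fibroblasts, but cultured myoblasts make them too. Chains are hydroxylated and folded in the endoplasmic reticulum with the help of Serpinh1, trimmed outside the cell and cross-linked by lysyl oxidases.

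All C2C12 reads on collagen chains came to 12482 of 3309635. The 4 most counted chains, Col6a3, Col3a1, Col1a1 and Col1a2, held 85.3% of them. Per library, collagen chains took a lowest share of 0.365%, a median of 0.397% and a highest of 0.454% of all reads in controls, against 0.298%, 0.354% and 0.400% in co-culture. The means were 0.405 ± 0.0322% and 0.350 ± 0.0333% (SD, n = 6 each), a difference of -0.0552 percentage points. Thus 5 of 6 co-cultured libraries lay below every control and co-culture 4 lay inside the control range. No test was made on sums over the members. In such bulk libraries fewer cells of a kind and less RNA per cell cannot be told apart. Markers of other cell types were counted in the same C2C12 libraries. The 12 neuronal markers took 0.0178 to 0.0239% of control and 0.0172 to 0.0214% of co-culture reads, with Elavl3, Chat, Isl1 and Mnx1 at 0. The 10 fibroblast and tendon markers, of which 8 had reads and Tcf21 and Tnmd were at 0, took 0.00563 to 0.00990% and 0.00749 to 0.0134%. Of 7 endothelial markers 1 had a read, in co-culture, and of 7 macrophage markers 2 had 6 reads in all. The muscle and fibroblast marker shares were the higher in co-culture by their means (1.19 against 0.98% and 0.0109 against 0.00777%), and their part in the collagen values was not tested.

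**Figure D1:**
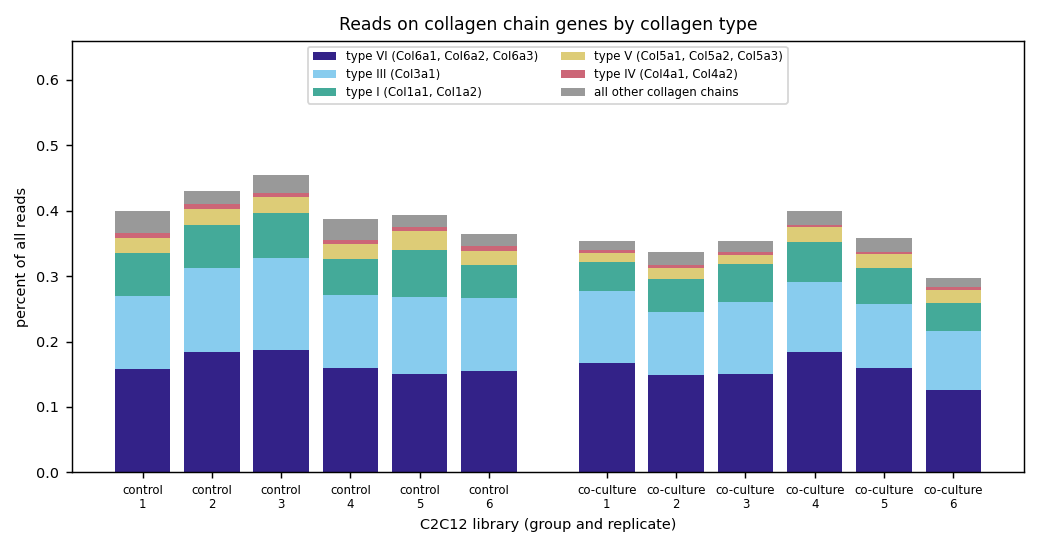
Percent of all reads on collagen chain genes (y axis) in each of the 12 C2C12 libraries (x axis), stacked by collagen type. Control bars end between 0.365 and 0.454%, co-culture bars between 0.298 and 0.400%, and type VI and type III form the largest parts in every library.

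By collagen class the reads were unevenly spread. Fibrillar chains (10 of 11 with reads) held 50.2% of collagen reads and beaded filament chains (4 of 8) 43.1%. Multiplexins held 2.32%, short-chain network collagens 2.03%, the basement membrane type IV genes 1.47%, fibril-associated collagens 0.745%, transmembrane collagens 0.0961% and the anchoring fibril gene Col7a1 0.00801%, which is 1 read. As a share of all reads, the fibrillar class went from a control mean of 0.208 ± 0.0193% to 0.172 ± 0.0140% with co-culture (SD, n = 6), a ratio of 0.826, and 5 of 6 co-cultured libraries were below every control. Beaded filament chains had 0.166 ± 0.0161% and 0.156 ± 0.0193%, a ratio of 0.941. Type IV genes had 0.00678 ± 0.00102% and 0.00434 ± 0.000651%, a ratio of 0.640, on 103 and 81 reads, and all 6 co-cultured libraries were below every control. That separation rests on 7 to 48 reads per control library and 5 to 28 per co-cultured library. No type IV gene passed the filter, and no share over other sums of genes, nor a value with a length trend removed, is given. Short-chain network genes had a ratio of 0.538, fibril-associated genes 0.611 and multiplexins 0.947. Within the collagen reads, type VI held 40.8 ± 1.76% in controls and 44.5 ± 1.97% in co-culture, type I 15.6 ± 1.44% and 14.9 ± 1.27%, type III 29.7 ± 0.993% and 29.2 ± 1.97%, and type V 6.02 ± 0.742% and 5.12 ± 1.08%.

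Levels between chains were compared per length, as counts scaled to the library total (CPM) and per kilobase of the transcripts the reads were assigned to. Division by length may not suit long Nanopore reads, so the order per kilobase holds for this measure only. In controls Col3a1 had 216 ± 20.2 CPM per kb and Col6a3 173 ± 16.5 (SD, n = 6), followed by Col1a2 at 63.0 ± 9.27 and Col1a1 at 50.9 ± 6.82. Col5a2 (22.5 ± 3.89), Col8a1 (19.9 ± 7.5), Col18a1 (18.9 ± 7.90) and Col6a1 (16.8 ± 4.56) lay within their spread of each other, and Col5a1 at 11.8 ± 3.15 was lowest of the 9 tested chains, within the spread of Col6a1, Col8a1 and Col18a1. In this order Col6a3 and Col1a2 were apart by more than their spread, as were Col1a1 and Col5a2, while Col1a2 and Col1a1 overlapped. By CPM without the length, Col6a3 came before Col3a1.

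Upstream sequence is shown for 4 chains the results turn on: Col1a2, which passed the test, Col3a1, whose groups did not overlap, and Col4a1 and Col4a2, which start next to each other. Each is the 250 bases before the RefSeq start on GRCm38.p6, 5′ to 3′ on the gene's strand. Capitals mark 3 motifs searched on both strands: the CCAAT box, the TATAA box and the GGGCGG box. A match on the opposite strand is printed as its reverse complement. Col1a2 is at chr6:4505368-4505617 (plus strand), Col3a1 at chr1:45311288-45311537 (plus), Col4a1 at chr8:11312827-11313076 (minus) and Col4a2 at chr8:11312555-11312804 (plus). The Col1a2 window is before the RefSeq start but inside the GENCODE bounds of that gene, which begin at 4504814.
Col1a2: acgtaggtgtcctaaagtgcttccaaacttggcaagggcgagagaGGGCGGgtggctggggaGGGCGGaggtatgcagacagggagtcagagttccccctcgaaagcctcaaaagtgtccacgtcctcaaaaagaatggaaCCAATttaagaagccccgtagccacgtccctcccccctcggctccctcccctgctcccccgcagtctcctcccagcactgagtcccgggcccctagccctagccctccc
Col3a1: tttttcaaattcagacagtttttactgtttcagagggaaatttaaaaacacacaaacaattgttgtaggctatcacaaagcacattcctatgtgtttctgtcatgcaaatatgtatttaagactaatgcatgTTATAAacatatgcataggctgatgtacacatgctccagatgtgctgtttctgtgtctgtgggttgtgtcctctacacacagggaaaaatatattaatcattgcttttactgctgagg
Col4a1: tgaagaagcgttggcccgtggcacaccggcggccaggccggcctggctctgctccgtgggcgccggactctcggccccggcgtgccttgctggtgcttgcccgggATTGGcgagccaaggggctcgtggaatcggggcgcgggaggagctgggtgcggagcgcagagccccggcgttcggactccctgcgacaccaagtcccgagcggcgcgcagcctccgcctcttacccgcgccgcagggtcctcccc
Col4a2: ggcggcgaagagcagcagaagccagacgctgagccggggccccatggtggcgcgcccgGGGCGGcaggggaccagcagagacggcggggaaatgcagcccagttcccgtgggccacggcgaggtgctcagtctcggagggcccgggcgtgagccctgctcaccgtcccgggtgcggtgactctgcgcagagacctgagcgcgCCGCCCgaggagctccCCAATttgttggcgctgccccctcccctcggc
The Col1a2 window holds 1 CCAAT, starting 109 bases before the start, and GGGCGG at 205 and 188 bases. The Col3a1 window, with 35.2% G and C against 62.0% for Col1a2, holds neither of these but TATAA beginning 117 bases before the start, overlapped by its reverse complement. In the 2 windows of type IV genes CCAAT or its complement starts 145 bases before Col4a1 and 32 bases before Col4a2. Of the 9 tested chains 7 have a window, of which 2 hold CCAAT, 1 TATAA and 4 GGGCGG in any of their windows. Over all 32851 windows of that length, CCAAT was in 33.8%, TATAA in 22.8% and GGGCGG in 32.7%.

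Of the 9 tested chains 1 fell in co-culture and 0 rose (edgeR quasi-likelihood test, Benjamini-Hochberg adjusted over 2570 genes), against 37 called genes among the 2570, which is 1.44%, and 0.623% called lower. All 9 log2 fold changes were below 0, as were 49.5% of those of all tested genes, and their median was -0.25 against 0.0024. An unadjusted p under 0.05 with a lower level was found in 5 of the 9 (Col1a2, Col5a2, Col3a1, Col8a1, Col6a1) and in 8.83% of all tested genes. The groups did not overlap, lower in co-culture, in 1 of the 9 (Col3a1) and in 0.661% of all. Without overlap and higher there were 0 of the 9, against 1.05% of all. The 9 chains had read-weighted lengths of 4.10 to 8.99 kb, against a median of 1.95 kb over tested genes, and all lay in the longest of 5 length bins (512 genes, median log2 fold change -0.15). With a transcript-length trend removed in each library, 0 of the 9 passed (3 at an unadjusted p under 0.05), 5 were below 0 and the median was -0.09. Among all 2570 genes 29 passed in that setting and 337 had an unadjusted p under 0.05, in either direction.

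**Figure D2:**
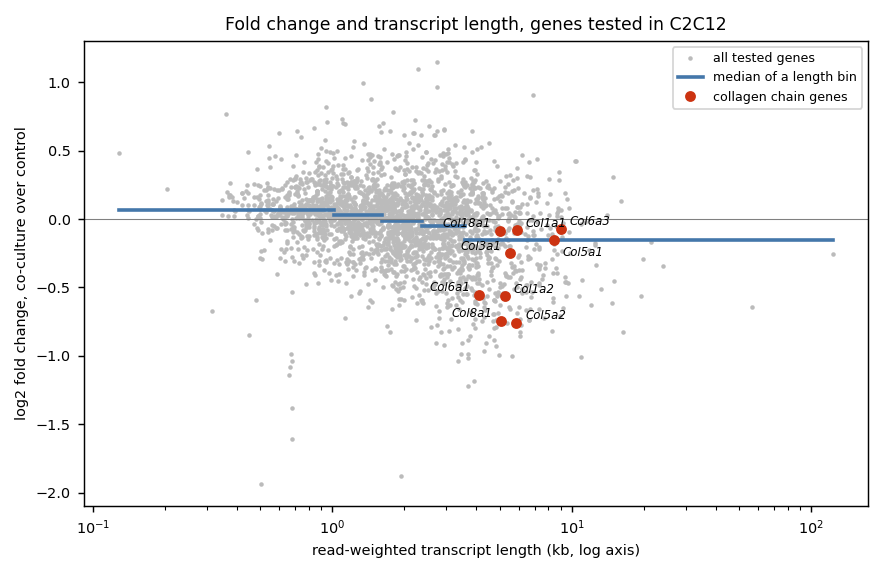
Log2 fold change of co-culture over control (y axis) against read-weighted transcript length in kb (x axis, log scale) for the genes tested in C2C12. Red points are the 9 collagen chains, which lie at 4.10 to 8.99 kb in the longest bin, and blue lines are bin medians, from 0.07 in the shortest to -0.15 in the longest.

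Among fibrillar chains, Col1a2, the α2 chain of type I collagen (chromosome 6, 4504814 to 4541544 in GRCm38), fell. Its level in control libraries 1 to 6 was 350, 310, 382, 281, 389 and 280 CPM of all reads, and in co-cultured libraries 182, 205, 286, 284, 236 and 198. The 6 co-cultured libraries were all below the control median and 4 of them were below every control, while co-culture 3 and 4 reached the lowest controls. The log2 fold change was -0.56 (SE 0.134, 95% interval -0.84 to -0.28, n = 6 each, edgeR adjusted p = 0.0365). The call was lost with the length trend removed (-0.41, interval -0.65 to -0.17, edgeR adjusted p = 0.0827), with libraries under 150000 reads left out (-0.62, 0.0842), without the filter (-0.47, 0.105), and without control 1 (0.0716), 3 (0.104) or 5 (0.0539) or co-culture 1 (0.0683), 2 (0.109), 5 (0.0736) or 6 (0.0619). Of its 890 reads, 96.4% were on the full-length transcript Col1a2-201 of 52 exons and 30 were on transcripts with a retained intron.

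Col1a1, the α1 chain of the same collagen (chromosome 11, 94936224 to 94953042), had 302, 353, 311, 281, 324 and 234 CPM in controls and 265, 294, 293, 330, 325 and 231 in co-culture. The groups overlapped almost wholly. Its log2 fold change was -0.08 (SE 0.116, interval -0.32 to 0.16, edgeR adjusted p = 0.834), and 0.08 with the length trend removed.

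Type I collagen is a heterotrimer in which α1 chains outnumber α2 chains. The ratio of Col1a1 to Col1a2 reads was 0.864, 1.14, 0.814, 1.0, 0.831 and 0.837 in controls 1 to 6, and 1.45, 1.44, 1.02, 1.16, 1.37 and 1.17 in co-culture. Co-cultured libraries were above the control median in 6 of 6 and above every control in 5 of 6, with control 2 inside the co-culture range. The mean log2 ratio (0.5 added to each count) went from -0.14 ± 0.191 to 0.33 ± 0.203 (SD, n = 6), a difference of 0.47 (exact two-sided permutation test, whose smallest possible p is 0.00216, p = 0.00433, adjusted p = 0.0216 over 5 ratios). This ratio and the 4 below were chosen after the values had been seen, and the adjustment over 5 ratios does not cover that choice. The type I ratio uses the same counts as the fold changes of Col1a1 and Col1a2 above, so it is not a separate result. The ratio passed with libraries under 150000 reads left out (0.55, exact adjusted p = 0.0397) and in 8 of 12 cases with 1 library left out. Without control 1, 3, 4 or 6 the exact adjusted p was 0.0541 each, with differences of 0.46, 0.44, 0.50 and 0.45. The main transcripts of the pair are 5930 and 5348 bases long, both in the longest length bin, which spans 3604 to 123179 bases. A ratio with the length trend removed was not computed, and the part of length in it was not tested.

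**Figure D3:**
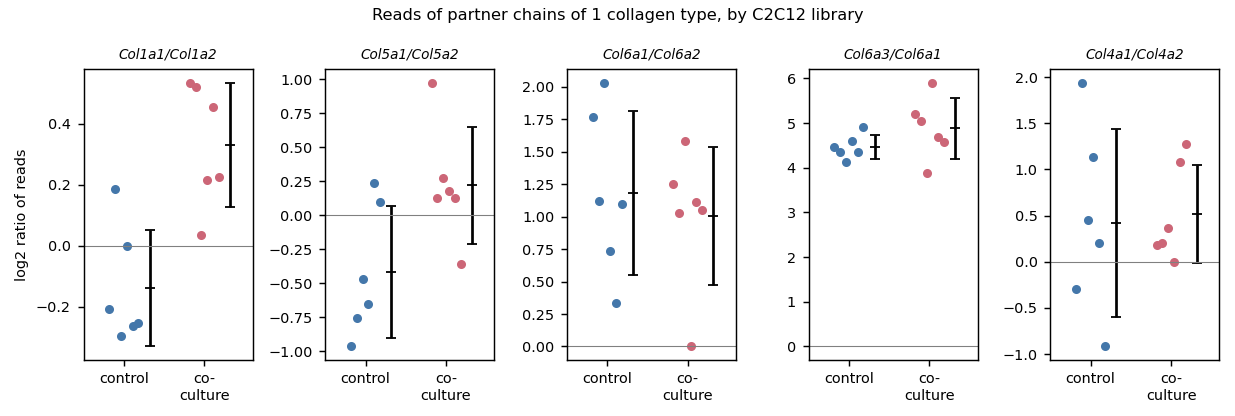
Log2 ratio of reads of partner chains (y axis) in each C2C12 library, control in blue and co-culture in red, with the mean and SD of 6 libraries beside the points, for 5 pairs. For Col1a1/Col1a2 5 of 6 co-cultured libraries lie above every control, and the Col6a3/Col6a1 ratio lies near 4.47 in controls and 4.88 in co-culture.

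Col3a1, the chain of the type III homotrimer that mixes with type I in compliant tissues (chromosome 1, 45311538 to 45349706), had 1128, 1278, 1393, 1114, 1182 and 1119 CPM in controls and 1097, 965, 1108, 1070, 974 and 903 in co-culture. All 6 co-cultured libraries lay below all 6 controls, the nearest pair being control 4 at 1114 and co-culture 3 at 1108. The difference did not pass the test across genes (log2 fold change -0.25, SE 0.0795, interval -0.41 to -0.08, edgeR adjusted p = 0.108). With the length trend removed it was -0.09 (interval -0.25 to 0.08, edgeR adjusted p = 0.726). Its neighbour Col5a2 lies 24614 bases away, end to end, with no protein-coding gene between.

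Type V collagen nucleates fibrils and sets their width. Col5a2, its α2 chain (chromosome 1, 45374321 to 45503282), had a lowest level of 91.1, a median of 137 and a highest of 159 CPM in controls, and 42.7, 83.9 and 101 in co-culture. The 5 controls other than control 6 lay above every co-cultured library. The log2 fold change was -0.76 (SE 0.200, interval -1.17 to -0.34, edgeR adjusted p = 0.0524), which did not pass. It passed with library totals (edgeR adjusted p = 0.0459), limma-voom (limma adjusted p = 0.0424), without control 6 (edgeR adjusted p = 0.0296) and without co-culture 6 (0.0497). It did not pass in the other 10 cases with 1 library left out (0.0557 to 0.133), without the filter (0.103) or with the replicate number as a block (0.111). Nor did it pass with DESeq2 (DESeq2 adjusted p = 0.0526), with the length trend removed (-0.59, edgeR adjusted p = 0.116) or with libraries under 150000 reads left out (0.226). Of its reads 83.6% were on the full-length Col5a2-201 (162 in controls, 124 in co-culture) and 15.5% on Col5a2-203, a 1970-base model with a retained intron (38 and 15).

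Col5a1, the α1 chain (chromosome 2, 27886425 to 28039514), had 79.5, 90.6 and 150 CPM (lowest, median, highest) in controls and 76.7, 84.8 and 112 in co-culture. The groups overlapped, and the log2 fold change was -0.15 (interval -0.54 to 0.24, edgeR adjusted p = 0.844). It turned to 0.01 without control 5, the library with the highest level. The Col5a1 to Col5a2 ratio had a log2 mean of -0.42 ± 0.483 (SD, n = 6) over controls and 0.22 ± 0.430 over co-cultured libraries, a difference of 0.64 in the same direction as that of type I. It did not pass (exact permutation p = 0.0303, adjusted p = 0.0758). The third chain, Col5a3, was under the filter, with 26 control and 17 co-culture reads.

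Type VI collagen is a heterotrimer of α1, α2 and α3 chains that links the basement membrane of muscle fibres to the surrounding matrix. Col6a3, the large α3 chain (chromosome 1, 90765923 to 90843971), was the most counted chain, with 1494, 1719, 1757, 1502, 1384 and 1477 CPM in controls and 1615, 1426, 1380, 1783, 1515 and 1194 in co-culture. The groups overlapped, and the log2 fold change was -0.07 (SE 0.0897, interval -0.26 to 0.11, edgeR adjusted p = 0.814). It was 0.14 with the length trend removed. Of its 5086 reads 99.4% were on Col6a3-202, a 9001-base transcript of 41 exons, and 17 reads on the 10106-base Col6a3-201 of 44 exons.

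Col6a1, the α1 chain (chromosome 10, 76708792 to 76726168), had 45.6, 64.6 and 97.6 CPM (lowest, median, highest) in controls and 26.4, 45.6 and 90.6 in co-culture. Of the co-cultured libraries 5 were below the control median, and co-culture 3 at 90.6 was not. The log2 fold change was -0.55 (SE 0.238, interval -1.05 to -0.06) and did not pass (edgeR adjusted p = 0.271). Col6a2, the α2 chain, which lies 85161 bases from Col6a1 on the same strand, was under the filter with 50 control and 40 co-culture reads (33.4 CPM, interval 24.8 to 44.03, and 22.1 CPM, interval 15.8 to 30.05).

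Reads of the 3 chains of type VI were far from equal. Over all C2C12 libraries Col6a3 had 25.3 times the reads of Col6a1, and 11.5 times per kilobase, while Col6a1 had 2.23 times those of Col6a2 (2.30 per kilobase). The Col6a3 to Col6a1 ratio ranged from 18 to 32.4 in controls and from 15.2 to 67.5 in co-culture. Its mean log2 ratio differed by 0.41 between the groups and did not pass (exact permutation p = 0.212, adjusted p = 0.354). It was 0.21 without co-culture 4 (exact adjusted p = 0.707), 0.61 without co-culture 3 (0.0649) and 0.65 with libraries under 150000 reads left out (0.179). The difference of Col6a1 to Col6a2 did not pass either (-0.18, exact permutation p = 0.602, adjusted p = 0.752).

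**Figure D4:**
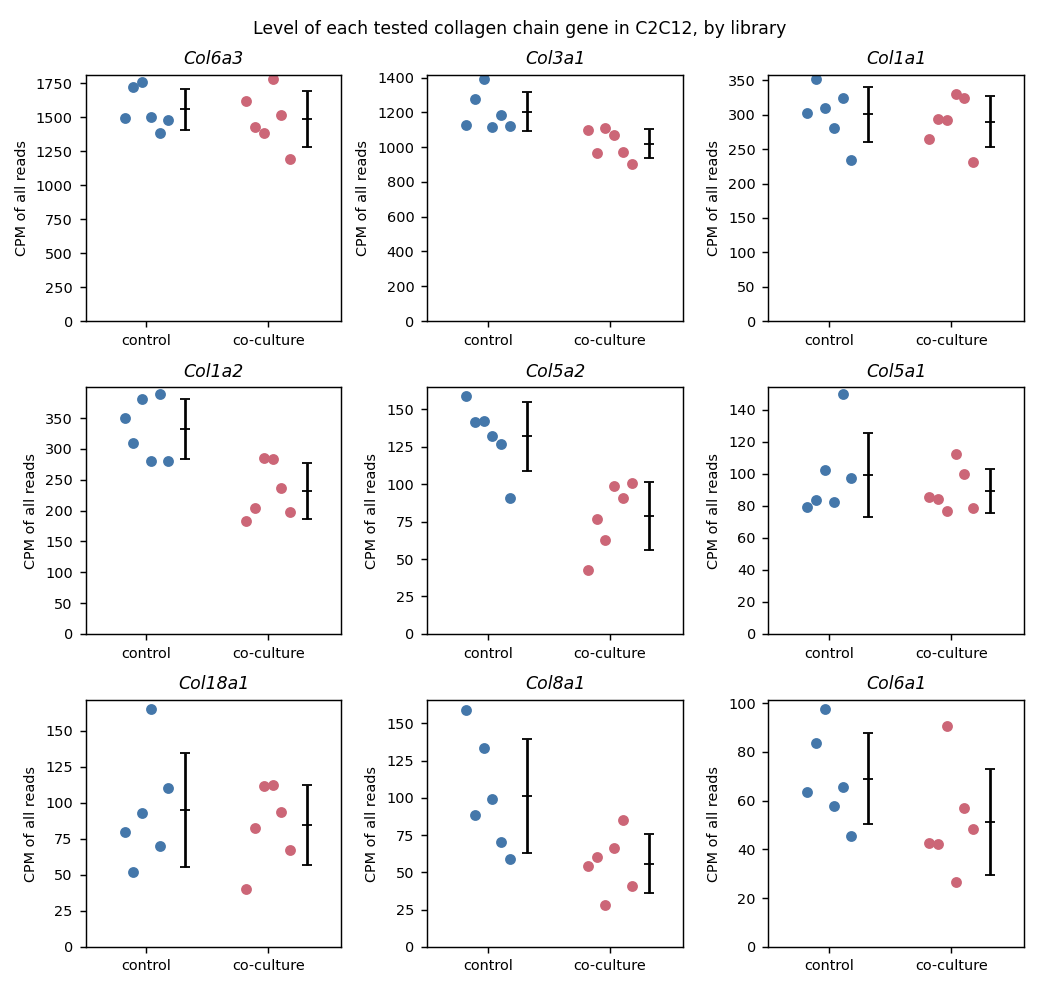
Level of the 9 tested collagen chains in CPM of all reads (y axis, from 0) in each C2C12 library, control in blue and co-culture in red, with mean and SD of 6 libraries as black bars. Only Col3a1 has all co-cultured libraries below all controls, and Col1a2 and Col5a2 each have 4 co-cultured libraries below every control.

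Col8a1, a short-chain collagen that forms hexagonal networks (chromosome 16, 57624258 to 57754737), had 58.6, 93.6 and 159 CPM in controls and 27.9, 57.2 and 85.4 in co-culture (lowest, median, highest). All 6 co-cultured libraries were below the control median. The log2 fold change was -0.74 (SE 0.254, interval -1.27 to -0.21) and did not pass (edgeR adjusted p = 0.142). Its partner Col8a2 had 3 control reads and 0 in co-culture, both at or under the limit of 3 reads, and no fold is given.

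Col18a1, a multiplexin of basement membranes whose end fragment is endostatin (chromosome 10, 77052178 to 77166548), had 51.7, 86.3 and 165 CPM in controls and 39.9, 88.1 and 112 in co-culture. The groups overlapped. The log2 fold change was -0.08 (interval -0.68 to 0.51, edgeR adjusted p = 0.957), and it was 0.12 without control 4 and 0.08 without co-culture 1. It overlaps Slc19a1 on the opposite strand over 8825 bases. That gene had 7 reads and Col18a1 260.

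**Figure D5:**
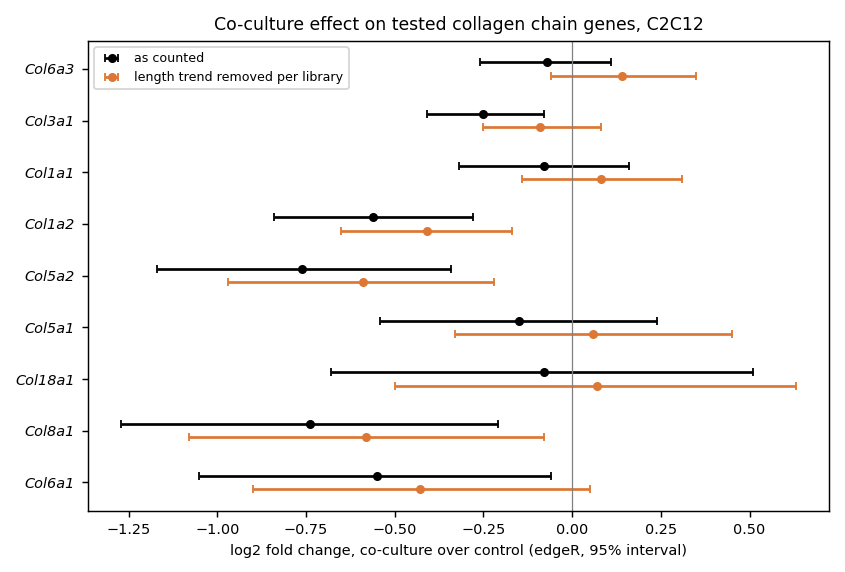
Log2 fold change of co-culture over control with its 95% interval (x axis) for the 9 tested chains (y axis), as counted in black and with the length trend removed in orange. As counted, the intervals of Col3a1, Col1a2, Col5a2, Col8a1 and Col6a1 lie below 0, and with the trend removed those of Col1a2, Col5a2 and Col8a1 do.

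Basement membrane and other chains under the filter were compared by reads summed over each group, with exact Clopper-Pearson 95% intervals that cover counting error only. Col4a1 and Col4a2, the chains of the common type IV network, lie head to head on chromosome 8 with annotated ends that overlap by 22 bases. Col4a1 had 63 control reads (42.1 CPM, interval 32.3 to 53.8) and 46 in co-culture (25.4 CPM, 18.6 to 33.9). Col4a2 had 35 (23.4 CPM, 16.3 to 32.5) and 32 (17.7 CPM, 12.1 to 24.9). Col4a1 was below the control median in 6 of 6 co-cultured libraries, and so was Col4a2. These libraries held 2 to 15 reads of Col4a1 and 2 to 13 of Col4a2 each, and the share of all genes with this pattern is not given here. Without the filter the log2 fold changes of Col4a1 and Col4a2 were -0.55 (edgeR adjusted p = 0.611) and -0.40 (edgeR adjusted p = 0.697). The Col4a1 to Col4a2 ratio did not pass (0.10, exact permutation p = 0.857, adjusted p = 0.857).

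Col12a1, a fibril-associated collagen of tendon and muscle matrix, had 50 control reads (33.4 CPM, interval 24.8 to 44.03) and 27 in co-culture (14.9 CPM, 9.82 to 21.7). Its control libraries ranged from 0 CPM (control 6) to 55.6, and 4 of them were above every co-cultured library. An unfiltered fit gave it -1.02 on the log2 scale (SE 0.388), which did not pass (edgeR adjusted p = 0.342).

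Of the 7 chains under the filter with 10 or more reads, 5 had the lower summed CPM in co-culture and the other two, Col15a1 and Col16a1, the higher. Col15a1, a multiplexin of muscle and capillary basement membranes, had 8 control reads (5.34 CPM, 2.31 to 10.5) and 22 in co-culture (12.1 CPM, 7.61 to 18.4). All 30 were on Col15a1-203, a model of 1755 bases and 8 exons. The unfiltered fit gave Col15a1 1.19 on the log2 scale (SE 0.631), which did not pass (edgeR adjusted p = 0.611). Col16a1, a fibril-associated collagen, had 2 and 9 reads, of which 72.7% were on a processed transcript of 833 bases. Its log2 fold change without the filter was 1.70 (edgeR adjusted p = 0.611). Col5a3 had 17.4 CPM in controls (11.3 to 25.4) and 9.38 in co-culture (5.46 to 15.02), or -0.65 on the log2 scale in the unfiltered fit (edgeR adjusted p = 0.611).

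The 17 chains with 1 to 9 reads held 45 reads in all. Col13a1, a transmembrane collagen found at the neuromuscular junction, had 4 control and 5 co-culture reads. Col25a1, another transmembrane collagen known for its part in the motor innervation of muscle, had 1 control read. Col4a5 had 4 and 1, Col11a1 4 and 2, Col26a1 4 and 0, and Col27a1 1 and 2. Col14a1, Col19a1 and Col4a6 had 1 read in each group and Col24a1 had 2 in controls. A single read fell on Col4a4, Col7a1, Col11a2, Col17a1, Col20a1 and Col23a1. No C2C12 read fell on Col2a1, Col4a3, Col6a4, Col6a5, Col6a6, Col9a1, Col9a2, Col9a3, Col10a1, Col22a1 or Col28a1, which allows up to 0.906 CPM each. Col22a1 is the collagen of muscle-tendon junctions, and Col2a1, Col9a1 to Col9a3 and Col10a1 belong to cartilage.

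NSC34 libraries held 8 collagen reads of 70865. There were 2 of 15858 control reads (126 CPM, interval 15.3 to 456) and 6 of 55007 co-culture reads (109 CPM, 40.0 to 237), and no chain could be tested. Col18a1 had 1 control read and 3 in co-culture, all 3 in library 2, which held 30314 of the 55007 co-culture reads. Col5a3 had 1 read, in control 6, and Col15a1, Col25a1 and Col9a2 had 1 each in co-culture. Col6a3 and Col3a1, the leading chains of C2C12, had 0 reads in both groups of NSC34. In controls this allows up to 189 CPM, against 1616 and 1240 CPM over summed reads in C2C12 controls. In co-culture it allows up to 54.5 CPM. The co-culture limit is 3.71% of the Col6a3 level and 5.44% of the Col3a1 level in co-cultured C2C12 (1472 and 1003 CPM over summed reads).

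The genes that modify, export, process, bind or break down collagen were listed by role: 118 genes, of which 30 were tested in C2C12. With edgeR 0 of the 30 passed in either direction, 7 had an unadjusted p under 0.05, all lower (8.83% of all tested genes were), and 21 log2 fold changes were below 0 (49.5% of all) with a median of -0.11. With DESeq2 3 of the 30 fell (Sparc, Fn1 and Timp3), where 20 of all 2570 genes were called lower. With limma-voom 1 of the 30 fell (Sparc), where 28 of the 2570 were called lower. With the length trend removed 0 passed and 18 were below 0 with a median of -0.06. In that setting 6 had an unadjusted p under 0.05, all lower, against 337 of all 2570 genes in either direction. With libraries under 150000 reads left out 0 of 41 tested passed. With 1 library left out, Sparc passed without control 1 or 6, Fn1 without control 4 or 6, Timp3 without control 5 or 6 and Hsp90b1 without control 5 (edgeR adjusted p of 0.0172 to 0.0499).

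In chain modification and folding 9 of 21 genes were tested and 0 passed. Hsp90b1, the general endoplasmic reticulum chaperone, stood at -0.42 on the log2 scale (edgeR adjusted p = 0.0747), P4hb, the shared subunit of prolyl 4-hydroxylase, 0.18 (0.578) and Ppib, the prolyl isomerase of procollagen, -0.13 (0.682). Serpinh1, the collagen-specific chaperone, named here outside the rule, had -0.07 (edgeR adjusted p = 0.844). In export 3 of 11 were tested and 0 passed: Sar1a had 0.29, Sec13 -0.11 and Sar1b 0.06, all coat genes of vesicles that leave the endoplasmic reticulum.

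Outside the cell, 4 of 16 genes of propeptide removal, assembly and cross-linking were tested and 0 passed. An unadjusted p under 0.05 with a lower level was found in 3 of the 4, against 8.83% of all tested genes. Sparc, a collagen-binding glycoprotein, went from a control mean of 2672 ± 282 CPM to 2199 ± 163 CPM (SD, n = 6 each; log2 fold change -0.29 with SE 0.0741; edgeR adjusted p = 0.0524). Fn1, fibronectin, on which fibrils assemble, had 430 ± 89.9 and 300 ± 56.7 CPM (-0.53, edgeR adjusted p = 0.0524). Lox, the lysyl oxidase that cross-links fibrils, had 71.8 ± 24.2 and 41.9 ± 4.86 CPM (-0.59, edgeR adjusted p = 0.23). For Sparc, Fn1 and Lox alike, 6 of 6 libraries from co-culture lay under the control median. The share of all tested genes with this pattern is not given here, and the genes were named for their small p. Among small leucine-rich proteoglycans, which coat fibrils, 3 of 10 were tested and 0 passed: Bgn (biglycan) had -0.41 (edgeR adjusted p = 0.068), Ogn (osteoglycin) -0.38 (0.365) and Dcn (decorin) 0.20 (0.785), which ranged from 0.08 without co-culture 1 to 0.54 without control 2. Co-cultured libraries below the control median numbered 6 of 6 for Bgn, 5 for Ogn and 0 for Dcn, where 6 of 6 lay above it.

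Of 12 collagen receptors 1 was tested, Itgb1, the β1 subunit shared by the collagen-binding integrins (-0.51, edgeR adjusted p = 0.108). Of 15 genes of breakdown 4 were tested and 0 passed: the metalloproteinase inhibitors Timp3, Timp1 and Timp2 had -0.69 (edgeR adjusted p = 0.0524), -0.14 (0.541) and 0.08 (0.901). Of 22 regulators 5 were tested and 0 passed, with Tgfb3, a growth factor that induces collagen genes, at -0.38 (edgeR adjusted p = 0.475), Creb3l1, a transcription factor of the secretory pathway, at -0.20 (0.769) and Ccn2, a target of that growth factor family, at 0.22 (0.782). Of 12 basement membrane partners Sparc and Hspg2 (perlecan, 0.03, edgeR adjusted p = 0.986) were tested.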

How the data were processed

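Per the labels, total RNA from C2C12 and NSC34 libraries was extracted with Trizol and read on a Nanopore MinION. The deposited values are raw counts of reads per Ensembl transcript, 1 column per library, on GRCm38 per the submitters' processing notes; which aligner, counter, annotation release or strand rule was used is not given in the sources used here. Columns were matched to samples by name (0 unmatched). Of 37677 C2C12 and 10427 NSC34 transcripts, 37415 and 10374 matched GENCODE M21 (GRCm38) without version; 0.224% and 0.238% of reads did not. Counts were summed per gene, over transcripts of every type.

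C2C12 was tested with edgeR 4.0.16 in R 4.3.3 (filterByExpr, TMM, quasi-likelihood F test, 6 against 6), with Benjamini-Hochberg adjustment over 2570 genes holding 88.3% of reads, at 0.05. Printed CPM values use all reads. Alternatives were DESeq2 1.42.0, limma-voom (limma 3.58.1), scaling by RLE or by library totals, other filters, the replicate number as a block, a loess length trend (span 0.5) removed per library, and libraries left out; partner ratios were added later. The fit was tested on simulated data. Libraries of a group differed by more than sampling noise in every pair (chi-square per degree of freedom of 1.33 or more). Shared sequence was searched with BLAST+ 2.17.0 (100 bases or more): 0 other genes matched the main transcripts of the 16 chains with 10 or more reads at 90% identity. The 0 limit is 3 reads, and intervals are exact at 95%. Promoter windows are from RefSeq (35 of 44 members matched). Every chain with reads was to be accounted for, and per pathway list the genes past the threshold and up to 3 of smallest p named. Members, classes and lists were chosen with earlier results of these data known. Of the marker lists, 1 is not reported here.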

Additional observations from a re-analysis of the deposited data

Results flagged for a closer look

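In 64 groups of 6 libraries (chain levels, class shares and partner ratios in C2C12), 3 had a highest or lowest library set far apart from the rest, by a gap past Dixon's 95% limit for the group's range; chance flags about 1 in 20 groups. Col5a1 stood at 150 CPM of all reads in control 5, with a gap of 0.679 of the range, and without that library its log2 fold change was 0.01. Col16a1 stood at 6.51 CPM in control 6, where it had 1 of its 2 control reads. The log2 ratio of Col6a1 to Col6a2 was 0.0 in co-culture 4, where each had 4 reads, and without that library the difference between the groups was 0.02.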

How the results depend on the processing

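The number of C2C12 genes called, 37, was 58 with library totals, 55 with limma-voom and 106 without the filter. It was 6 with the 3 libraries under 150000 reads left out (control 1, control 4, co-culture 3), and 11 to 74 with 1 library left out. The number of collagen chains called, 1, was 2 with library totals and with limma-voom (Col1a2, Col5a2) and 0 without the filter, with the length trend removed and with shallow libraries left out. With 1 library left out it was 0 to 2. The collagen share of reads kept its direction, at -0.0653 to -0.0448 percentage points with 1 library left out and -0.062 to -0.0511 in 3 other settings. None of these settings removed the length trend, so the part of length in the collagen share was not tested. The NSC34 collagen level was 98.6 to 121 CPM with 1 library left out. Replicate numbers did not pair the libraries (correlations of same-numbered deviations -0.054 to 0.105), and with the replicate block 26 genes and 1 chain, Col1a2 (-0.55, edgeR adjusted p = 0.0476), passed; the block ended no call among the chains. Directions turned in chains near 0: Col6a3 to 0.01 without the filter and 0.14 with the length trend removed, Col1a1 to 0.0 and 0.08, Col18a1 to 0.0 and 0.07, also 0.03 with limma-voom and 0.07 without shallow libraries, and Col5a1 to 0.06 with the length trend removed. Hspg2 turned to -0.04 without shallow libraries. With 1 library left out, values ranged over 0 for Col5a1 (-0.26 to 0.01), Col18a1 (-0.33 to 0.12), Sar1b (-0.05 to 0.19), Timp2 (-0.02 to 0.16), Hspg2 (-0.15 to 0.34), and the log2 ratios Col4a1/Col4a2 (-0.17 to 0.40) and Col6a1/Col6a2 (-0.35 to 0.02). The cause was not tested. In NSC34 depth limits every chain.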

Other observations

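In some libraries the reads of a chain lay as a block on another transcript model, a pattern picked out after the values were seen. All 18 Col18a1 reads of co-culture 6 were on Col18a1-203 (4791 bases) and 0 on Col18a1-202 (5063 bases), while the other 11 libraries had 241 reads on Col18a1-202 and 0 on Col18a1-203. Col4a1 reads of control 4 and control 5 were all on a nonsense-mediated decay model of 6487 bases (5 and 7 reads), with 0 on Col4a1-201, which held 36 reads in control 2. The 5 reads of Col12a1-202 were all in control 5, where Col12a1-201 had 0. Sums per gene do not change with the model chosen, but the levels per kilobase, the length bins and the length trend use the length of the assigned transcripts.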
